A study of Mus musculus with 20 samples.

Results

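Of the 10 wild type RNA pools of mouse gut in this series 5 were fetal, and 2 of these carried a colon profile and 3 a small-intestine profile. The 5 fetal pools lay on 10 of the 20 two-colour arrays, each pool once in each dye, and the dye swaps were averaged. The profile was judged from fetal levels of genes that differed between adult wild type colon and adult wild type small intestine, so these fetal levels chose the members. The fetal differences of the wild type channel below are therefore a description and carry no test.

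The colon-profile pools were those labelled fetal small intestine 3 and fetal colon 2. The small-intestine-profile pools were those labelled fetal small intestine 1, fetal small intestine 2 and fetal colon 1. Below, values of the colon-profile pools are those of fetal small intestine 3 and then fetal colon 2, and values of the small-intestine-profile pools are those of fetal small intestine 1, fetal small intestine 2 and then fetal colon 1. Fetal small intestine pools 1 and 2 differed from one another less than repeated dye-swap arrays did (variance ratio 0.496). They were counted as 1 replicate, which leaves 2 replicates against 2. Adult colon pools 1 and 3 had a ratio of 0.924 and were kept as separate replicates. Dye-swap arrays of adult colon pool 1 were unlike, which lowers its ratios. Its wild type channel had 39.7% of probes well above background in Cy3 and 67.6% in Cy5. Across genes adult colon pools 1 and 3 correlated at r = 0.951, against 0.999 for fetal small intestine pools 1 and 2. All fetal pools were of stage E18.5 and of wild type genotype, against P30 for the 3 adult colon and 2 adult small intestine pools of the same genotype. The other channel of every array held a pool from Spdef knockout (KO, Spdef-/-) mice of the same stage. Per the labels, RNA came from whole dissected small intestine or colon, each pool combined 2 to 3 littermates, and no strain is given. Whole organs hold epithelium, muscle, nerve and blood cells, and in such bulk RNA fewer cells of a type and less RNA per cell cannot be told apart.

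The vertebrate gut is patterned along its axis before it functions. Hox genes of the highest paralog groups mark the hindgut, GATA factors are used in the small intestine, and CDX factors act throughout the intestinal epithelium. Small-intestinal enterocytes digest and absorb sugars, peptides and lipids, which they export with apolipoproteins, whereas colonocytes mainly recover salt and water. In rodents the late fetal and suckling small intestine also takes up whole proteins by endocytosis, a function lost at weaning.

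Promoters are shown for 5 genes with large fetal differences in either direction, picked by hand and not by rank. They span 250 bases before to 50 after the gene start and come from RefSeq (GRCm38.p6), each written 5′ to 3′ on the strand of its gene. Capitals mark AGATAA, a motif of GATA factors, and TTTATG, a motif of CDX factors, on either strand (TTATCT and CATAAA on the other). Lct (lactase), Rbp2 (a retinol-binding protein) and Fabp1 (a fatty acid-binding protein) were lower in the colon-profile pools, and the serum amyloid A genes Saa1 and Saa2 were higher.
Lct, chr1:128328269-128328568, minus strand: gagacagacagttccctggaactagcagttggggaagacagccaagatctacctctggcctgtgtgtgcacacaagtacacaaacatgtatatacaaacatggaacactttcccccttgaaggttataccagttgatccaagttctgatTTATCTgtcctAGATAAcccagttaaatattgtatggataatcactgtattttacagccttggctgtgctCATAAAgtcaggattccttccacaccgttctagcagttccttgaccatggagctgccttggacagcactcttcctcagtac
Rbp2, chr9:98490287-98490586, plus strand: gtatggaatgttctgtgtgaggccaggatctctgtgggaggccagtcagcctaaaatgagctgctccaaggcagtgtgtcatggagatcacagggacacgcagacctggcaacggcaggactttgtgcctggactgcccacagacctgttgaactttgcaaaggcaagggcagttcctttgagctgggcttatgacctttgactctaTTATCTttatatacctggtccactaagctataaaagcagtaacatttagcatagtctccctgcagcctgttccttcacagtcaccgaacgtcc
Fabp1, chr6:71199629-71199928, plus strand: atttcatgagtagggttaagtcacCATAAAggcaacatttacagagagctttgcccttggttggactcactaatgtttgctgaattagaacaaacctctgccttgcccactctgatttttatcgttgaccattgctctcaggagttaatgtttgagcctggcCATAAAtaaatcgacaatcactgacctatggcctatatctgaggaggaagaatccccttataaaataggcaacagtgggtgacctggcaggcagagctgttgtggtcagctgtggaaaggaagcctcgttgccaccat
Saa1, chr7:46742931-46743230, minus strand: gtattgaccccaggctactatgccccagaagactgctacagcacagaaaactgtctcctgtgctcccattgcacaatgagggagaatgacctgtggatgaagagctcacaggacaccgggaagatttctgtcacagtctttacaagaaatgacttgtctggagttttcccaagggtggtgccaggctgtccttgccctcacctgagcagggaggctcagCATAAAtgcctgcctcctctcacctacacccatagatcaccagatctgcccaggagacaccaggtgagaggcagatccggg
Saa2, chr7:46751583-46751882, plus strand: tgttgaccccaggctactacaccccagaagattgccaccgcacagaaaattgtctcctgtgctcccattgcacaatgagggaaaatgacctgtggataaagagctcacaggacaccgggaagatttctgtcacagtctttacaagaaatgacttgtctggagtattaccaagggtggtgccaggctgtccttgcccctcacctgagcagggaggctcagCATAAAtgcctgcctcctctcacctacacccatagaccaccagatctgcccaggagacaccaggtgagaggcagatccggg
The Lct promoter held 2 AGATAA matches and 1 TTTATG match, the first of each starting at -101 and -31 from the gene start. The Rbp2 promoter held 1 AGATAA match at -43, and the Fabp1 promoter held 2 TTTATG matches. Saa1 and Saa2 each held TTTATG at -31, and their promoters were identical at 287 of 301 aligned columns (95.3%). AGATAA occurred in 11.2% of all 32851 RefSeq mouse promoters of this length, in 6.28% of 239 promoters of adult colon genes that were also higher in the fetal colon-profile pools, and in 12.3% of 397 promoters of the adult small-intestine genes that were also lower there. TTTATG occurred in 11.9% of all promoters, in 13.8% of the first set and in 10.1% of the second. A match describes letters in this window and no more.

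The profile score of a pool was the median log2 intensity of adult colon genes less that of adult small-intestine genes, each gene centred between its adult group means. It was 1.00 and 1.12 in the colon-profile pools, against -1.17, -1.15 and -1.18 in the small-intestine-profile pools. The midpoint of the lowest and highest fetal scores was -0.03, and the scores nearest to it on either side were 1.00 and -1.15. These scores set the midpoint and chose the groups, so the distances from it are a description. Adult colon pools scored 1.61 to 1.99 and adult small intestine pools -1.92 to -1.76. Every fetal pool thus lay between the adult groups and nearer to the midpoint than any adult pool. The adult pools had chosen these genes, so their scores lie apart in part by construction. The KO partners, whose values the choice did not use, scored 1.00 and 1.06 in the colon-profile pools, against -1.23, -1.21 and -1.12 in the small-intestine-profile pools. Across genes, which are not independent replicates, wild type fetal pools of the same profile correlated at r = 0.989 to 0.999 and pools of different profile at 0.926 to 0.939.

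**Figure D1:**
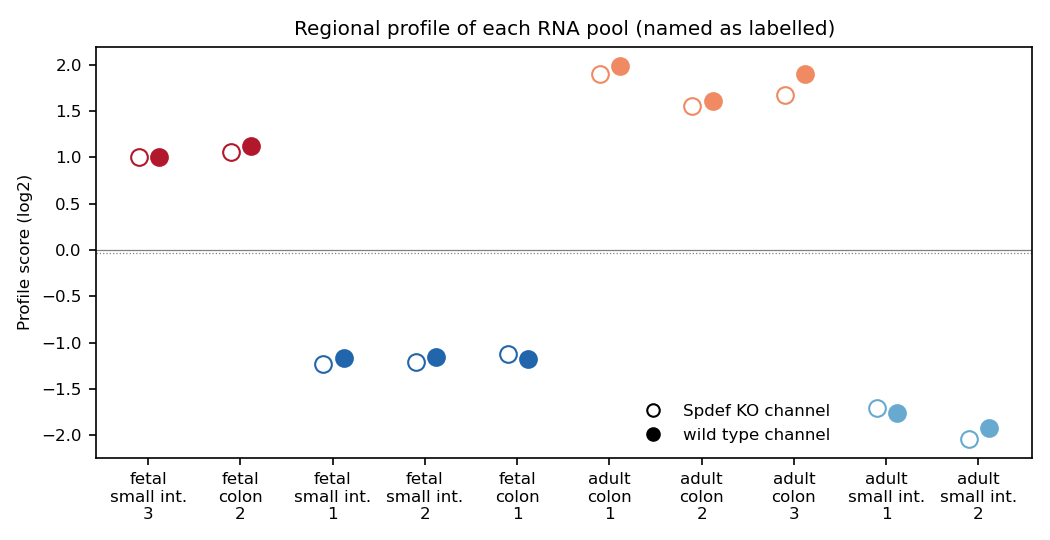
Profile score (log2) of each pool, named as labelled, with the KO channel as open and the wild type channel as filled points and the fetal midpoint as a dotted line. The pools labelled fetal small intestine 3 and fetal colon 2 lie at 1.00 and 1.12 in the wild type channel, and the other 3 fetal pools at -1.18 to -1.15.

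The profile goes against the label for 2 pools, fetal small intestine 3 and fetal colon 1, and both were hybridized on the slide numbered 5639. Grouped by label, 0 genes differed between fetal colon and fetal small intestine with limma (190, or 1.02% of 18611 genes, at an unadjusted p under 0.05), and the differences of colon minus small intestine were 0.22 for Hoxd10, -0.17 for Hoxd13 and -0.04 for Apoa1. Transcripts that report the sex of the pooled fetuses fell along the labels rather than the profiles. Xist, expressed from the inactive X chromosome of females, was at 13 and 8.03 in the colon-profile pools, against 11.67, 11.76 and 7.26 in the small-intestine-profile pools. The Y-linked Eif2s3y was at 6.94 and 11.06 in the colon-profile pools, against 7.36, 6.89 and 11.13 in the small-intestine-profile pools. Why labels and profiles part was not tested, and the pools are grouped by profile from here on.

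Markers of the gut wall moved with the profile. The summed level of 12 smooth muscle genes was 18.32 and 18.47 in the colon-profile pools, against 16.67, 16.71 and 16.67 in the small-intestine-profile pools, as the log2 of summed intensities. That of 16 enteric neuron and glia genes was 14.95 and 15.17 in the colon-profile pools, against 13.26, 13.23 and 13.33 in the small-intestine-profile pools. The sum of 15 proliferation genes was 16.62 and 16.42 in the colon-profile pools, against 15.94, 15.94 and 15.88 in the small-intestine-profile pools, while adult colon had 15.35 to 15.70 and adult small intestine 16.02 and 16.15. Of these 15 genes 0 had a wild type fetal call, and 8 passed as higher in the KO pools, beside 19.8% of all genes. Adult colon and adult small intestine differed in the same way for muscle, at 18.19 to 18.52 in colon against 16.65 and 16.97 in small intestine. The part of these tissue differences in the gene differences that follow was not tested.

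Of the 3 region markers, Hoxd10 and Hoxd13, transcription factors of the hindgut, were higher in the colon-profile pools and Apoa1, the main protein of high-density lipoprotein, was lower. Hoxd10 was at 8.96 and 9.37 in the colon-profile pools, against 7.01, 7.01 and 7.05 in the small-intestine-profile pools, and the probe was not well above background on any of the 6 small-intestine-profile arrays, so its difference is at least 4.18-fold. Hoxd13 was at 10.21 and 9.98 in the colon-profile pools, against 6.94, 7.23 and 6.98 in the small-intestine-profile pools, a log2 difference of 3.06 for the brightest of its 2 probes and 0.67 for the other. Apoa1 was at 11.95 and 11.73 in the colon-profile pools, against 16.49, 16.55 and 16.66 in the small-intestine-profile pools, a 27-fold lower level in the colon-profile pools. For none of the 3 did the pools of the 2 profiles overlap. In adults 1 of the 3 passed as higher in colon and 1 as lower, with a median difference of 0.88, so 1 Hox marker did not pass there. The size of a difference depended on the background correction where 1 profile was dim: with the scanner's processed signals the log2 difference was 6.23 in place of 2.13 for Hoxd10 and 7.64 in place of 3.06 for Hoxd13. Over the 214 called genes among the lists and named genes, 88 moved by over 1.5 times with those signals and 0 changed sign. In the file's coordinates (build mm8) the Hoxd10 probe lies at chr2:74495062-74495121, the Hoxd13 probe at chr2:74472030-74472089 and the Apoa1 probe at chr9:45980833-45980892.

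In the KO channel, Hoxd10 was at 9.34 and 9.21 in the colon-profile pools, against 7.02, 7.08 and 7.07 in the small-intestine-profile pools (log2 difference 2.22 ± 0.1, SE, limma adjusted p = 0.000633). Hoxd13 was at 10.59 and 10.36 in the colon-profile pools, against 6.91, 7.17 and 6.94 in the small-intestine-profile pools (3.48 ± 0.12, adjusted p = 0.000398). Apoa1 was at 11.83 and 11.27 in the colon-profile pools, against 16.62, 16.64 and 16.44 in the small-intestine-profile pools (-4.98 ± 0.21, adjusted p = 0.000516). All 3 markers thus passed the test in pools whose values had not been used for the choice. These KO pools shared arrays and spots with the wild type pools.

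How many adult regional genes were already unequal before birth was asked next. In adults, 610 genes (3.28%) were at least 2-fold higher in colon and 659 (3.54%) at least 2-fold higher in small intestine with a limma adjusted p under 0.05. A fetal difference was called where it reached a log2 size of 1 and the replicates of the profiles did not overlap, which held for 1010 genes (5.43%) higher and 1285 genes (6.9%) lower in the colon-profile pools. Of the adult colon genes, 240 (39.3%) were called higher in the colon-profile pools, 18 were called lower and 158 differed by under 0.5. Of the adult small-intestine genes, 402 (61%) were called lower in the colon-profile pools, 10 were called higher and 161 differed by under 0.5. Of the adult small-intestine genes 15 were not above background in any fetal pool, so no fetal difference could be measured for them. These genes chose the members, so the counts are a description. The shares depended on single adult pools: without adult small intestine pool 1 far fewer genes were regional, and 69 of 103 colon genes (67%) and 154 of 203 small-intestine genes (75.9%) were called. Without adult small intestine pool 2 they were 57 of 91 colon genes (62.6%) and 131 of 183 small-intestine genes (71.6%).

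The median difference of adult colon genes was 0.82 between fetal profiles and 1.58 between adult organs, and that of adult small-intestine genes was -1.43 between fetal profiles and -2.03 between adult organs. The adult medians come from the same pools that chose these genes, at a log2 size of at least 1. They are thus enlarged by the choice and are not a like measure beside the fetal medians. Over all genes the medians were 0.03 between fetal profiles and 0.04 between adult organs. Conversely, 23.8% of the genes called higher and 31.3% of the genes called lower in the fetal colon-profile pools were regional in the same direction in adults. Among 17180 genes with no adult call, 744 were called higher and 846 lower.

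**Figure D2:**
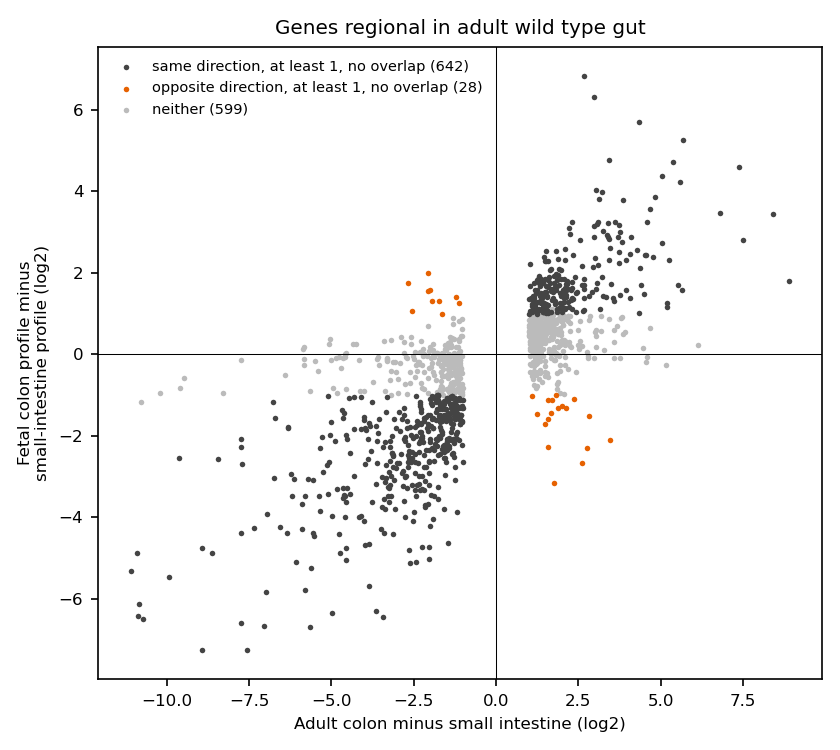
Log2 difference of regional genes between adult colon and adult small intestine (x axis) and between fetal colon-profile and small-intestine-profile pools (y axis), coloured by the fetal call. Of 1269 genes, 642 were called in the adult direction and 28 in the opposite direction, and the fetal median was 0.82 for colon genes and -1.43 for small-intestine genes.

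In the KO channel, limma called 3691 genes (19.8%) higher and 2913 (15.7%) lower in the colon-profile pools at an adjusted p under 0.05. Of the adult colon genes 401 (65.7%) were higher, 35 were lower and 174 were not called, with a median difference of 0.83. Of the adult small-intestine genes 478 (72.5%) were lower, 23 were higher and 158 were not called, with a median of -1.45. Counts in this test depended on single pools: without fetal small intestine pools 1 and 2 the total fell to 2593 genes, and without fetal colon pool 1 to 3390, against 6604 with all.

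Among adult colon genes, Saa2, Saa1 and Car2 had the largest fetal differences. Saa2 was at 14.26 and 14.41 in the colon-profile pools, against 7.54, 7.59 and 7.42 in the small-intestine-profile pools, which is 115-fold. Saa1 was at 14.39 and 14.78 in the colon-profile pools, against 8.30, 8.32 and 8.22 in the small-intestine-profile pools, which is 79.7-fold. Both encode serum amyloid A, an acute-phase protein that gut epithelium also secretes, and Saa3 followed with 16.4-fold. Saa1 and Saa2 are near-identical copies, and whether each probe reads both transcripts was not tested. All 3 passed in the KO pools, at log2 differences of 6.55 for Saa2, 5.89 for Saa1 and 3.67 for Saa3 (limma adjusted p = 0.000272 each). In adults the log2 differences were 2.67 for Saa2, 2.98 for Saa1 and 3.04 for Saa3, and adult small intestine averaged 14.33 for Saa2, 13.82 for Saa1 and 11.26 for Saa3.

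Car2, a carbonic anhydrase, was at 15.15 and 14.60 in the colon-profile pools, against 9.09, 9.13 and 9.25 in the small-intestine-profile pools, a 51.8-fold difference. Its levels in the colon-profile pools were close to the adult colon mean of 15.03. B3galt5, a galactosyltransferase of glycan chains, was 27.3-fold higher, Wfdc2, a secreted protein with protease inhibitor domains, 24.1-fold, and Nupr1, a stress-induced nuclear protein, 15.8-fold. Sval1, named for its likeness to seminal vesicle secretions, was 38.7-fold higher, at 15.24 and 14.96 in the colon-profile pools, against 10.11, 10.04 and 9.58 in the small-intestine-profile pools. All 5 passed in the KO pools, with log2 differences of 3.92 (Nupr1) to 5.82 (Car2).

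Of 16 Hox genes of paralog groups 9 to 13, 11 passed the filter on dim probes, and 7 of these were called higher and 0 lower, with a median difference of 2.18. Over all genes 5.43% were called higher and 6.9% lower. A probe well above background in 2 wild type replicates of any group passed this filter. A gene could thus enter through the pools where it is bright alone, and the count and median depend in part on this. Hoxb13 was at 11.64 and 11.15 in the colon-profile pools, against 7.04, 7.06 and 6.99 in the small-intestine-profile pools, and it was not well above background on any small-intestine-profile array, so the difference is at least 19.6-fold. The same held for Hoxa10, at 10.61 and 10.81 in the colon-profile pools, against 6.91, 6.94 and 6.90 in the small-intestine-profile pools (at least 12.9-fold). Hoxa11 was at 10.46 and 11.03 in the colon-profile pools, against 6.92, 6.89 and 6.94 in the small-intestine-profile pools (at least 13.3-fold). For all 3, the small-intestine-profile pools thus give only an upper bound.

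Hoxa9 was 4.52-fold and Hoxb9 4.58-fold higher, with a log2 difference of 1.24 by the other probe of Hoxb9. Hoxa13 differed by 0.82, while in adults it differed by 2.20 (adjusted p = 0.00711), and the adult colon level of 9.22 lay above the fetal 7.76 and 7.93. Hoxc9 ran the other way, at 7.51 and 7.65 in the colon-profile pools, against 7.88, 7.76 and 7.95 in the small-intestine-profile pools, a difference of -0.30 that was under the size for a call. In the KO pools 10 of the 11 genes were higher and 1, Hoxc9 (-0.55, limma adjusted p = 0.0132), was lower. Over all genes 19.8% were higher and 15.7% lower in the KO pools. In adults 6 of the 11 were higher and 0 lower at an adjusted p under 0.05, beside 3.83% higher and 3.86% lower of all genes.

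Of 23 genes of groups 1 to 8, 18 passed the filter, 3 were called higher and 1 lower, and the median was 0.46. Fetal calls over all genes were 5.43% higher and 6.9% lower. In the KO pools 8 of the 18 were higher and 1 lower, with a median of 0.45, beside 19.8% higher and 15.7% lower of all genes. Hoxa7 was at 11.10 and 11.78 in the colon-profile pools, against 8.88, 8.90 and 9.08 in the small-intestine-profile pools. Hoxb5 was at 11.50 and 11.79 in the colon-profile pools, against 9.56, 9.51 and 9.31 in the small-intestine-profile pools, and Hoxb6 was 3.03-fold higher by its brightest probe, while its other probe gave a log2 difference of -0.06. Hoxc6 was the call in the other direction, at 7.35 and 7.33 in the colon-profile pools, against 8.6, 8.65 and 8.58 in the small-intestine-profile pools. Hoxb5 passed in the KO pools (2.36, adjusted p = 0.000792) and had no adult call (0.71, adjusted p = 0.165). Smooth muscle and neuron markers moved with these genes, as given above.

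Of 34 regional transcription factors, 31 passed the filter, with 10 called lower and 3 higher in the colon-profile pools. Fetal calls over all genes were 6.9% lower and 5.43% higher. Gata5, a GATA factor of the small-intestinal epithelium, was at 7.05 and 7.16 in the colon-profile pools, against 9.57, 9.63 and 9.5 in the small-intestine-profile pools. Onecut2, a homeodomain factor of the proximal gut, was at 7.65 and 7.55 in the colon-profile pools, against 11.06, 11.08 and 11.37 in the small-intestine-profile pools. Creb3l3, an activator of lipid genes in the liver and gut, was at 8.15 and 10.14 in the colon-profile pools, against 14.86, 14.99 and 14.94 in the small-intestine-profile pools. Its colon-profile pools were unlike each other and did not overlap with the others. Hnf4g, a nuclear receptor of enterocytes, was 4.03-fold lower, Gata6 4.2-fold and Pdx1, the homeodomain factor of the duodenum and pancreas, 2.12-fold. Among their 3 probes each, the smallest log2 difference was -2.09 for Onecut2 and -0.26 for Gata6.

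Cdx1 and Cdx2, which act in both organs, differed by 0.02 and -0.65. Meis2, a partner of Hox proteins, was 3.58-fold higher. Tbx3, a T-box repressor, was lower in adult colon by 3.18 (adjusted p = 0.00244) and had no fetal call at -0.41. Among KO pools 15 of the 31 were lower and 7 higher, with a median of -0.35, beside 15.7% lower and 19.8% higher of all genes. In adults 8 of the 31 were lower and 2 higher.

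Of the gene lists examined, lipid handling had the largest median difference. Of 24 genes, 20 were called lower in the colon-profile pools and 0 higher, with a median of -3.35. Over all genes 6.9% were called lower and 5.43% higher. Apoa4, an apolipoprotein of chylomicrons, was at 9.62 and 9.23 in the colon-profile pools, against 16.44, 16.47 and 16.92 in the small-intestine-profile pools, which is 154-fold lower. Apoc2, the cofactor of lipoprotein lipase, was at 11.59 and 11.18 in the colon-profile pools, against 17.53, 17.60 and 17.79 in the small-intestine-profile pools, which is 78.6-fold lower. Apob, the structural protein of chylomicrons, was 32.9-fold lower by its brightest probe, while another of its 3 probes gave a log2 difference of -1.19.

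Mttp, which loads lipid onto Apob, was at 8.78 and 8.51 in the colon-profile pools, against 12.84, 12.94 and 13.33 in the small-intestine-profile pools. Fabp1 was at 10.80 and 11.69 in the colon-profile pools, against 15.89, 16.03 and 16.27 in the small-intestine-profile pools, and Rbp2 at 7.93 and 7.86 in the colon-profile pools, against 14.66, 14.82 and 14.43 in the small-intestine-profile pools. The sterol exporter Abcg5 was 37.8-fold lower and the cholesterol uptake protein Npc1l1 19.1-fold lower. Of the group, Apoa5, Apoe, Scarb1 and Abca1 had no fetal call, at differences of -0.27, -0.77, -0.87 and -0.32. The KO pools had 22 lower and 0 higher with a median of -3.38, beside 15.7% lower and 19.8% higher of all genes. In adults 19 were lower and 0 higher with a median of -4.03.

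The fetal colon-profile pools stood well above adult colon for several of these genes. Apoa1 was not well above background on any adult colon array, at 7.18, 7.10 and 6.97, against 15.91 and 16.09 in adult small intestine, a difference of at least 479-fold (limma adjusted p = 1.8e-05). Fabp1 was at 10.80 and 11.69 in the colon-profile pools and at a mean of 8.11 in adult colon. Mogat2, an enzyme of triglyceride resynthesis, was at 13.20 and 13.33 in the colon-profile pools and at a mean of 9.75 in adult colon. These comparisons between stages were not tested.

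**Figure D3:**
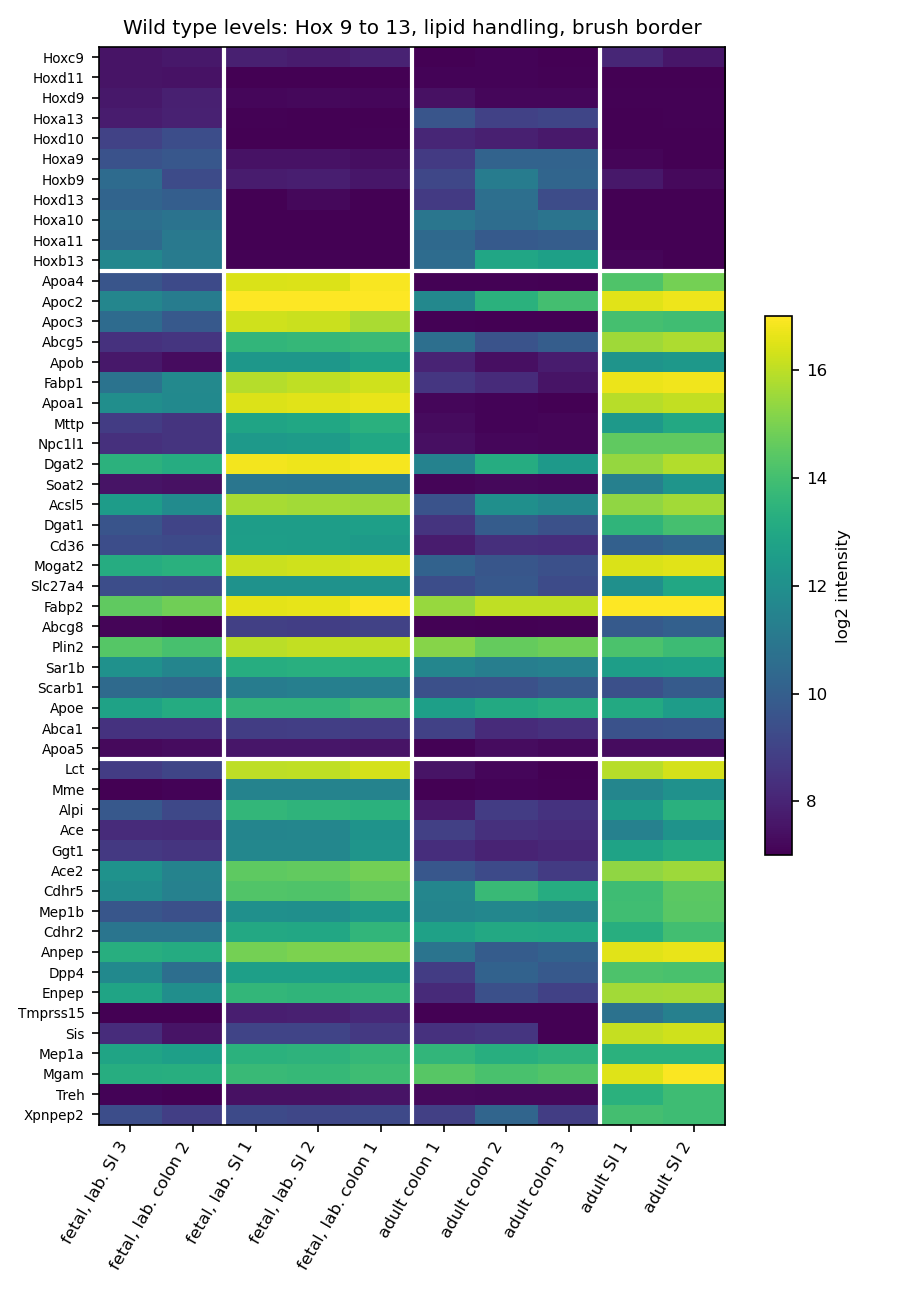
Log2 intensity of the wild type channel by pool for Hox genes of groups 9 to 13, lipid handling genes and brush border hydrolases. Within a gene, colour compares pools, and different genes are not comparable since probes differ. Hoxb13, Hoxa10 and Hoxa11 are dark in the small-intestine-profile pools, and Apoa4 and Lct are bright there and dark in the colon-profile pools.

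Brush border hydrolases are the digestive enzymes of the enterocyte surface. Of 20 genes 18 passed the filter, and 13 of these were called lower in the colon-profile pools and 0 higher. Their median was -2.10, and over all genes 6.9% were called lower and 5.43% higher. Lct, which splits milk sugar, was at 8.76 and 9.08 in the colon-profile pools, against 15.99, 16.06 and 16.37 in the small-intestine-profile pools, a 155-fold lower level. Mme, a membrane endopeptidase, was at 7.02 and 7.10 in the colon-profile pools, against 11.48, 11.49 and 11.46 in the small-intestine-profile pools, and was not well above background on any colon-profile array (at least 21.3-fold lower). Alpi, intestinal alkaline phosphatase, was 16.1-fold lower, and Ace, which makes angiotensin II, 12.3-fold lower. Their other probes gave smaller log2 differences, of -2.58 for Mme, -2.11 for Alpi and -2.41 for Ace.

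Sis, sucrase-isomaltase, which digests sugars of solid food, was at 8.28 and 7.54 in the colon-profile pools, against 9.05, 9.06 and 8.66 in the small-intestine-profile pools, a difference of -0.95, while in adults it was at a mean of 7.92 in colon and 16.21 in small intestine (-8.29, adjusted p = 0.00129). Treh, trehalase, differed by -0.51 before birth and by -6.41 in adults (adjusted p = 0.000119). The KO pools showed 16 of the 18 hydrolases lower, Sis among them (-1.36, limma adjusted p = 0.00364), and 0 higher. Over all genes 15.7% were lower and 19.8% higher in the KO pools. In adults 15 hydrolases were lower and 0 higher, with a median of -4.63.

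Of 22 nutrient transporters tested, of 23, 14 were called lower and 0 higher, with a median of -1.47. Over all genes 6.9% were called lower and 5.43% higher. Slc2a2, the basolateral glucose transporter, was at 7.11 and 7.11 in the colon-profile pools, against 11.24, 11.32 and 11.49 in the small-intestine-profile pools, and its other probe gave a log2 difference of -2.36. Slc6a19, a neutral amino acid transporter, was at 7.92 and 8.02 in the colon-profile pools, against 11.62, 11.60 and 11.67 in the small-intestine-profile pools, and Slc6a20a, an imino acid transporter, was 14.3-fold lower. Slc5a1, the sodium-glucose transporter, was 6.32-fold lower. In the KO pools 17 were lower and 1, the calcium channel Trpv6 (0.56, limma adjusted p = 0.0133), was higher. Over all genes 15.7% were lower and 19.8% higher in the KO pools. In adults 12 transporters were lower and 1, again Trpv6 (3.04, limma adjusted p = 0.00291), was higher.

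Of 9 genes of ileal bile acid handling, 3 were called lower and 1 higher, beside 6.9% lower and 5.43% higher of all genes. The exception was Slc10a2, the bile acid importer of the ileum, at 9.04 and 9.28 in the colon-profile pools, against 7.17, 7.15 and 7.29 in the small-intestine-profile pools, a 3.84-fold higher level in the colon-profile pools. It was also higher in the KO pools (1.87, adjusted p = 0.000798), whereas in adults its difference was -2.32 with an adjusted p of 0.103. Its 3 probes gave log2 differences of 0.88 to 1.94. Its exit partner Slc51b was 4.04-fold lower and the export pump Abcc2 6.44-fold lower. Fabp6, the ileal bile acid-binding protein, was near its dim end in all fetal pools, at 7.52 and 7.61 in the colon-profile pools, against 7.63, 7.55 and 7.95 in the small-intestine-profile pools, while adult small intestine averaged 10.36.

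Of 13 receptors and lysosomal genes of endocytic enterocytes, 7 were called lower and 1 higher in the colon-profile pools, with a median of -1.52. Over all genes 6.9% were called lower and 5.43% higher. In adults 2 of the 13 were lower and 3 higher at an adjusted p under 0.05, with a median of 0.05. The difference between stages was not tested. Fcgrt, the receptor that carries maternal antibodies across the epithelium, was at 10.60 and 10.84 in the colon-profile pools, against 15.32, 15.29 and 15.77 in the small-intestine-profile pools (28.2-fold lower), and its adult difference was -0.42 (adjusted p = 0.486). Lrp2, the endocytic receptor megalin, was 3.74-fold lower by its brightest probe (its 3 probes gave log2 differences of -1.90 to -0.65), Glb1, a lysosomal galactosidase, 4.67-fold and Prdm1, a repressor that holds the suckling programme in mouse enterocytes, 3.6-fold.

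The call in the other direction was Pllp, a membrane protein of endosomes, at 11.03 and 10.98 in the colon-profile pools, against 9.38, 9.46 and 9.33 in the small-intestine-profile pools (log2 difference 1.02 by its other probe). Cubn, the receptor of vitamin B12 with intrinsic factor, had no fetal call at -0.91 although adult colon was lower by 5.64 (adjusted p = 0.00503). In the KO pools 10 of the 13 genes were lower and 1 higher, beside 15.7% lower and 19.8% higher of all genes. The KO median was -1.70, with Fcgrt at -4.82 (limma adjusted p = 0.000272).

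Genes of colon ion and water transport were divided before birth. Of 28 genes, 7 were called higher and 5 lower in the colon-profile pools, with a median of 0.31. Fetal calls over all genes were 5.43% higher and 6.9% lower. In adults 16 of the 28 were higher and 3 lower, with a median of 1.33. Atp12a, the colonic proton-potassium pump, was at 12.07 and 11.94 in the colon-profile pools, against 7.25, 7.35 and 7.28 in the small-intestine-profile pools, a 26.2-fold difference that was 7.36 on the log2 scale with the scanner's processed signals, in place of 4.71. Fxyd4, a regulator of the sodium pump, was at 10.12 and 10.36 in the colon-profile pools, against 6.99, 6.97 and 6.99 in the small-intestine-profile pools, at least 9-fold. Best2, a bicarbonate channel of goblet cells, was at 13.61 and 11.95 in the colon-profile pools, against 8.68, 8.6 and 8.46 in the small-intestine-profile pools, so the higher of these pools was on slide 5639.

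Aqp8, a water channel, was at 15.61 and 15.79 in the colon-profile pools, against 14.00, 14.08 and 13.77 in the small-intestine-profile pools, a 3.47-fold difference, while adult small intestine averaged 7.95 and adult colon 16.85. Car1, another carbonic anhydrase, was 10.8-fold higher before birth, and its adult difference was 8.42 on the log2 scale (adjusted p = 0.00173). Car4, the membrane-bound enzyme of the family, was at 7.07 and 7.20 in the colon-profile pools, against 7.05, 7.0 and 6.98 in the small-intestine-profile pools, and Aqp4, another water channel, differed by 0.55 before birth and by 3.93 in adults (adjusted p = 0.000466). Of the genes called lower, Clca4a and Clca4b, chloride channel regulators that are close paralogs, were 16.6-fold and 16-fold lower. Between the KO pools 9 genes were higher and 7 lower, beside 19.8% higher and 15.7% lower of all genes.

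Of 32 colon epithelial genes tested, of 36, 7 were called higher and 3 lower, with a median of 0.37. Fetal calls over all genes were 5.43% higher and 6.9% lower. In adults 13 of the list were higher and 1 lower. Muc3, a membrane mucin, was 7.33-fold higher by its brightest probe, while its other probe gave a log2 difference of 0.70. Ceacam1, an adhesion protein of the epithelial surface, was at 15.93 and 15.56 in the colon-profile pools, against 12.65, 12.51 and 12.83 in the small-intestine-profile pools, with log2 differences of 1.15 to 3.04 over its 3 probes, and had no adult call (0.15, adjusted p = 0.892). Cyp2c55, a cytochrome P450 of the colon, was 3.22-fold higher and Selenbp1, a selenium-binding protein of mature colonocytes, 2.63-fold. Of these 32 genes 12 were higher and 5 lower in the KO pools, beside 19.8% higher and 15.7% lower of all genes.

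Hormone genes of enteroendocrine cells were divided before birth. Of 18 genes, 2 were called higher and 7 lower in the colon-profile pools, beside 5.43% higher and 6.9% lower of all genes. Insl5, a peptide of colonic L cells, was at 15.10 and 14.64 in the colon-profile pools, against 11.05, 11.02 and 11.76 in the small-intestine-profile pools (11.1-fold), and Pyy, peptide YY, at 15.17 and 15.45 in the colon-profile pools, against 12.90, 12.97 and 12.96 in the small-intestine-profile pools (5.15-fold). Gip, the incretin of duodenal K cells, was at 7.28 and 7.10 in the colon-profile pools, against 12.12, 12.17 and 11.97 in the small-intestine-profile pools (29.2-fold lower). Cholecystokinin (Cck) was 4.85-fold lower by its brightest probe, while its other probe gave a log2 difference of -0.16, and ghrelin (Ghrl) 4.69-fold lower. Gcg, the glucagon-like peptide precursor, had no fetal call at 0.45. The KO test found 4 higher and 7 lower, beside 19.8% higher and 15.7% lower of all genes. By that limma test Insl5 differed by 4.38 (adjusted p = 0.000392) and Gip by -5.02 (adjusted p = 0.00031). In adults 2 hormone genes were higher and 4 lower.

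Of 23 genes of goblet cells and secretory progenitors tested, of 25, 8 were called higher and 1 lower in the colon-profile pools, with a median of 0.80. Over all genes 5.43% were called higher and 6.9% lower. Muc2, the main mucin of intestinal mucus, was at 13.70 and 13.51 in the colon-profile pools, against 10.41, 10.48 and 10.49 in the small-intestine-profile pools, an 8.82-fold difference by its brightest of 4 probes, which ranged down to a log2 difference of 0.15. Foxa2, a forkhead factor of secretory cells, was at 12.26 and 12.15 in the colon-profile pools, against 9.0, 8.99 and 8.98 in the small-intestine-profile pools. Agr2, which folds mucins, was 4.23-fold higher and Klf4, a factor of goblet cell maturation, 3.42-fold. The Notch ligand Dll1 was the gene called lower, by 2.52-fold. In the KO pools 12 were higher and 2 lower, beside 19.8% higher and 15.7% lower of all genes. In adults 10 were higher and 1 lower.

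For 3 of these 8 genes the KO pools did not pass the test. Spdef itself, the targeted gene, was in the KO channel at 7.75 and 8.48 in the colon-profile pools, against 7.86, 7.55 and 7.72 in the small-intestine-profile pools (difference 0.41, adjusted p = 0.279). In the wild type channel it was at 11.17 and 11.26 in the colon-profile pools, against 9.30, 9.51 and 9.35 in the small-intestine-profile pools (3.57-fold), so every KO pool lay below every wild type pool. Retnlb, a goblet cell protein, differed between profiles by 0.10 in KO pools (adjusted p = 0.699) and by 1.59 in wild type pools. Creb3l4, a factor of the secretory pathway, differed by -0.06 in KO pools (adjusted p = 0.754) and by 1.14 in wild type pools. Whether the difference between profiles itself differed between genotypes was not tested.

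**Figure D4:**
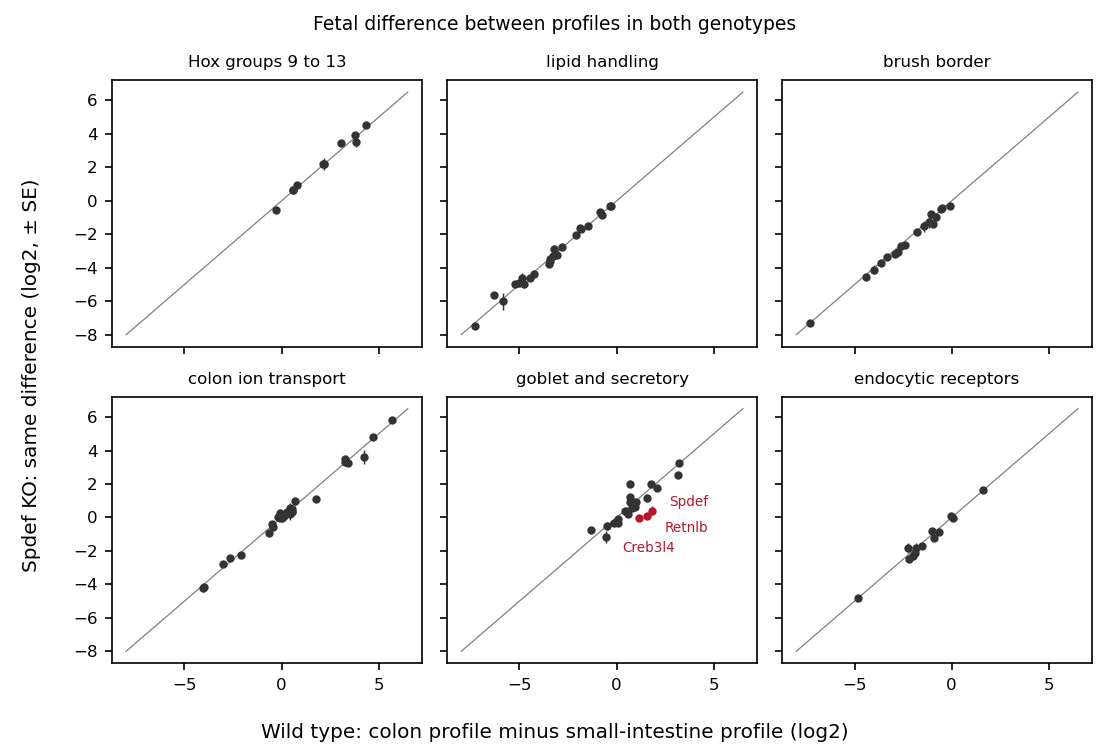
Log2 difference of colon-profile over small-intestine-profile fetal pools in the wild type channel (x axis) and in the KO channel (y axis, bars are limma SE) for 6 gene groups, with a grey line of equality. Lipid handling and brush border genes lie near the line, and Spdef, Retnlb and Creb3l4 (red) lie below it at KO differences of 0.41, 0.10 and -0.06.

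Among claudins, which seal the space between epithelial cells, 13 of 14 were tested. Of these 3 were called higher and 2 lower, beside 5.43% higher and 6.9% lower of all genes. Cldn8, a barrier-forming claudin, was at 13.57 and 13.39 in the colon-profile pools, against 11.57, 11.56 and 11.99 in the small-intestine-profile pools, and Cldn3 was 2.61-fold higher. The pore-forming claudins were the 2 lower ones, Cldn2 at 9.70 and 9.22 in the colon-profile pools, against 12.51, 12.48 and 12.07 in the small-intestine-profile pools, and Cldn15 at 9.54 and 9.38 in the colon-profile pools, against 11.52, 11.60 and 11.66 in the small-intestine-profile pools. All 4 passed in the KO pools, where 4 claudins were higher and 3 lower, beside 19.8% higher and 15.7% lower of all genes. In adults Cldn8 (4.39, adjusted p = 0.000904) and Cldn15 (-2.22, adjusted p = 0.00156) were the calls, 1 in each direction.

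Signals of the gut mesenchyme included genes in both directions. Of 36 Wnt, BMP, hedgehog, FGF and retinoid genes tested, of 40, 5 were called higher and 2 lower, against 0 higher and 1 lower in adults. Fetal calls over all genes were 5.43% higher and 6.9% lower. Sfrp2, a Wnt antagonist, was at 10.82 and 11.17 in the colon-profile pools, against 8.54, 8.46 and 8.61 in the small-intestine-profile pools. Rspo1, an enhancer of Wnt signals, was at 11.30 and 12.17 in the colon-profile pools, against 9.77, 9.84 and 9.99 in the small-intestine-profile pools.

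Rarb, a retinoic acid receptor, was 2.57-fold higher, while Aldh1a3, which makes retinoic acid, was at 8.90 and 9.26 in the colon-profile pools, against 12.29, 12.23 and 11.91 in the small-intestine-profile pools, by its brightest probe, and its other probe gave a log2 difference of -0.51. The ligand Bmp7 was 3.51-fold lower and had no adult call (0.04, adjusted p = 0.974). Of these genes, 12 were higher in the KO pools and 3 lower, with a median of 0.22, beside 19.8% higher and 15.7% lower of all genes. Smooth muscle genes were higher in the same pools, with Acta2, smooth muscle actin, at 16.40 and 16.50 in the colon-profile pools, against 14.52, 14.58 and 14.66 in the small-intestine-profile pools, by the brightest of 5 probes, which gave log2 differences of 0.37 to 1.85. Of the 12 muscle genes 9 were called higher in wild type, beside 5.43% of all genes. In the KO pools 10 of them passed as higher, beside 19.8% of all genes. Neuronal Uchl1 was at 13.97 and 14.33 in the colon-profile pools, against 11.13, 11.14 and 11.49 in the small-intestine-profile pools (log2 difference 1.48 by its other probe), and 10 of 16 neuron and glia genes passed as higher in the KO pools. The part of these tissues in the mesenchymal differences was not tested.

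Among genes with no adult call, S100a14 had the largest difference towards the colon-profile pools. S100a14, an epithelial calcium-binding protein, was at 13.98 and 13.36 in the colon-profile pools, against 8.68, 8.74 and 8.18 in the small-intestine-profile pools (37.4-fold), with an adult difference of 3.17 (adjusted p = 0.0879), and Oit1 followed at 12.37 and 12.39 in the colon-profile pools, against 8.06, 8.14 and 7.93 in the small-intestine-profile pools. Slc9a2, a sodium-proton exchanger, was at 12.18 and 12.35 in the colon-profile pools, against 8.94, 8.96 and 9.03 in the small-intestine-profile pools, by its brightest probe, while its other probe gave a log2 difference of 0.22, and it had no adult call at 0.71 (adjusted p = 0.111). Paqr5, a membrane progestin receptor, was 9.12-fold higher by its brightest probe (the other gave a log2 difference of 1.89) and Tspan1, a tetraspanin of epithelia, 8.91-fold. Stmn4, a tubulin-binding protein of neurons, was at 13.76 and 13.63 in the colon-profile pools, against 10.74, 10.66 and 10.64 in the small-intestine-profile pools, and adult levels averaged 9.06 in colon and 8.81 in small intestine.

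In the other direction, Abcb11, the bile salt export pump known from liver, was at 7.21 and 7.39 in the colon-profile pools, against 12.86, 12.91 and 13.14 in the small-intestine-profile pools (52.5-fold lower), while both adult organs were low, at means of 7.39 in colon and 7.53 in small intestine. Tdrp was at 7.33 and 7.34 in the colon-profile pools, against 11.82, 11.85 and 11.97 in the small-intestine-profile pools, and averaged 7.11 in adult colon and 7.13 in adult small intestine. Rgn, a calcium-binding protein of liver and kidney, was 30.6-fold lower, Arsg, a lysosomal sulfatase, 19.6-fold, and Spp2, a secreted phosphoprotein of liver and bone, 16.1-fold. Reg1, a secreted lectin, was 90.8-fold lower, at 7.92 and 7.52 in the colon-profile pools, against 14.30, 14.36 and 14.12 in the small-intestine-profile pools, and its adult difference of -4.66 did not pass (adjusted p = 0.298). All 6 passed in the KO pools, at -3.97 (Spp2) to -6.76 (Reg1).

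Transcripts of other organs also differed between the pools. Of 18 liver genes 0 were called higher and 8 lower, and of 18 pancreatic genes 1 higher and 5 lower. Of 12 stomach genes 0 were called higher and 4 lower, and of 9 genes of urothelium and bladder 3 higher and 0 lower. Fetal calls over all genes were 5.43% higher and 6.9% lower. The summed level of the liver genes was 15.04 and 14.67 in the colon-profile pools, against 16.54, 16.58 and 17.31 in the small-intestine-profile pools. Albumin (Alb) was at 9.11 and 8.46 in the colon-profile pools, against 7.28, 7.26 and 10.76 in the small-intestine-profile pools, and the liver glycoprotein Ahsg at 9.85 and 9.02 in the colon-profile pools, against 7.52, 7.48 and 11.16 in the small-intestine-profile pools, so that these defining liver genes were highest in the pool labelled fetal colon 1 and lowest in fetal small intestine pools 1 and 2. Summed pancreatic genes stood at 15.61 and 15.63 in the colon-profile pools, against 15.13, 15.18 and 15.18 in the small-intestine-profile pools, and summed stomach genes at 11.07 and 11.11 in the colon-profile pools, against 12.12, 12.17 and 12.61 in the small-intestine-profile pools. Summed urothelial and bladder genes were at 14.94 and 14.79 in the colon-profile pools, against 14.20, 14.21 and 14.24 in the small-intestine-profile pools. Amy2a5, pancreatic amylase, was at 7.07 and 7.14 in the colon-profile pools, against 9.38, 9.38 and 7.12 in the small-intestine-profile pools, so this enzyme was higher in fetal small intestine pools 1 and 2 than in the other fetal pools by this probe, while its other probe gave a difference between profiles of -0.02. The pancreatic list includes Zg16, which goblet cells also make. The part of other organs in the fetal differences was not tested.

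Other adult regional genes had fetal differences under 0.5. Hao2, a peroxisomal oxidase, was at 11.90 and 11.81 in the colon-profile pools, against 11.69, 11.73 and 11.55 in the small-intestine-profile pools, whereas adult colon averaged 13.62 and adult small intestine 7.5 (6.13, adjusted p = 0.00016). Sult1a1, a sulfotransferase, differed by -0.26 before birth and by 5.16 in adults, and Ggh, a folate hydrolase, by 0.15 before birth and by 4.46 in adults. Of adult small-intestine genes, Plb1, a brush border phospholipase, differed by 0.12 before birth and by -5.86 in adults, and Ada, adenosine deaminase, by -0.42 before birth and by -5.42 in adults. The drug-metabolizing Cyp3a11 and Cyp3a25, which belong to a family of close copies, lay between 6.96 and 7.39 in all fetal pools, and in adult small intestine Cyp3a11 averaged 13.16 and Cyp3a25 averaged 12.82. None of these 7 genes passed in the KO pools, where their adjusted p lay between 0.285 and 0.831.

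A further 28 regional genes were called in the direction opposite to the adult one. These were 18 of 610 adult colon genes, called lower, and 10 of 659 adult small-intestine genes, called higher. Both shares lay below those over all genes, of which 6.9% were called lower and 5.43% higher. Regional genes chose the groups, so opposite calls are fewer among them in part by construction. Slc26a3, the chloride-bicarbonate exchanger of colon, was at 7.88 and 7.91 in the colon-profile pools, against 10.45, 10.44 and 10.68 in the small-intestine-profile pools, while adult colon averaged 14.45 and adult small intestine 11.83. Its 3 probes gave fetal log2 differences of -3.08 to -0.09. Scnn1a, the alpha subunit of the epithelial sodium channel, was at 10.21 and 10.18 in the colon-profile pools, against 12.32, 12.31 and 12.30 in the small-intestine-profile pools, and was higher in adult colon by 3.45 (adjusted p = 0.000785), but its other probe gave a fetal difference of 0.69. The partner subunits Scnn1b and Scnn1g differed by 0.54 and 0.53 before birth.

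Ass1, an enzyme of arginine synthesis, was at 11.54 and 11.36 in the colon-profile pools, against 14.54, 14.55 and 14.66 in the small-intestine-profile pools, with both probes in the same direction, and was higher in adult colon by 1.77 (adjusted p = 0.00913). Ctsl, a lysosomal protease, was 4.83-fold lower in the colon-profile pools. Ces1c, a carboxylesterase, was at 13.76 and 13.56 in the colon-profile pools, against 11.49, 11.46 and 11.87 in the small-intestine-profile pools, and was lower in adult colon by 2.07. Reg3b, an antibacterial lectin, was 2.64-fold higher before birth and lower in adult colon by 1.22 (adjusted p = 0.0222). The KO pools passed in the fetal direction for Slc26a3 (-2.42, adjusted p = 0.0015), Scnn1a (-2.27, adjusted p = 0.000657), Ass1 (-3.35, adjusted p = 0.000532) and Ces1c (2.40, adjusted p = 0.00106).

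**Figure D5:**
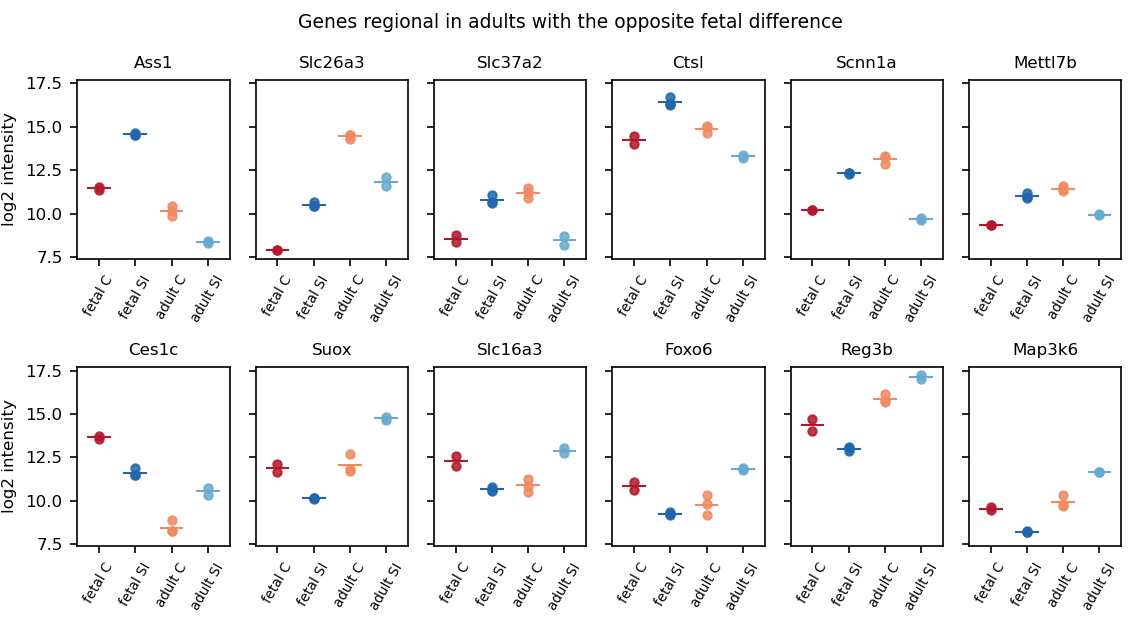
Log2 intensity of 12 genes by wild type pool (points) with the group mean (line), in fetal colon-profile (fetal C), fetal small-intestine-profile (fetal SI), adult colon (adult C) and adult small intestine (adult SI) pools. For Ass1 the fetal colon-profile pools lie at 11.54 and 11.36 below all fetal small-intestine-profile pools, while adult colon lies above adult small intestine.

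Slide 5639 held 1 pool of each profile, the one labelled fetal small intestine 3 and the one labelled fetal colon 1, so a difference within it has no replicate. On this slide 1104 genes (5.93%) were at least 2-fold higher and 1291 (6.94%) at least 2-fold lower in the colon-profile pool. For the pools on other slides these were 1244 (6.68%) higher and 1472 (7.91%) lower. Of those pools, fetal colon 2 lay on slide 7701 and fetal small intestine pools 1 and 2 on slide 5605. Outside slide 5639, profile and slide therefore cannot be told apart. Of the adult colon genes, 239 (39.2%) were at least 2-fold higher on slide 5639 and 250 (41%) on the other slides, 193 of them on both. Of the adult small-intestine genes, 391 (59.3%) were at least 2-fold lower on slide 5639 and 415 (63%) on the other slides, 372 of them on both. Across all genes, the difference within slide 5639 and the difference on the other slides, which share no pool, correlated at r = 0.843, and genes are not independent replicates.

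For several leading genes both differences had a similar size. Leading genes were ranked by the mean of both differences and had no overlap between profiles. Large values in both are thus in part by construction. Saa2 differed by 6.84 within slide 5639 and by 6.85 on the other slides, and Car2 by 5.91 within it and 5.49 outside it. Lct differed by -7.61 within it and -6.94 outside it, and Apoa4 by -7.30 within it and -7.23 outside it. Others had less similar sizes, with no test of that difference, such as Best2 at 5.15 within it and 3.31 outside it, and Creb3l3 at -6.79 within it and -4.79 outside it. The Paneth cell defensin Defa3, which has close copies in its family, differed by -4.87 within it and -7.37 outside it, and over both by -6.12 with its brightest probe and -3.19 with the other. Reg4, a secreted lectin of goblet and enteroendocrine cells, was at 12.01 and 10.30 in the colon-profile pools, against 12.45, 12.43 and 11 in the small-intestine-profile pools, which gave 1.01 within the slide and -2.13 outside it. The sex-linked Xist differed by 5.74 within the slide and by -3.68 outside it.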

How the data were processed

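RNA from mouse gut was measured on two-colour Agilent whole mouse genome arrays. Spot values were read by the authors with Feature Extraction 9.5.3 of Agilent, per the file headers, and the deposited mean signals and local backgrounds are intensity values on a linear scale. Arrays carried 41174 probes, of which 39.7% to 71.6% were well above background, and the number of pools limits the precision. The lowest share was in the wild type Cy3 channel of adult colon pool 1.

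From these intensities limma 3.58.1 (R 4.3.3) subtracted background (normexp, offset 50), applied loess within arrays (weight 0 for control spots) and scaled arrays by Aquantile. Outlier spots were left out, repeated spots averaged, channels split by genotype and dye swaps averaged. A probe was kept if well above background in the wild type channel on both arrays of at least 2 of the 9 replicates, and a gene was read from its brightest such probe (18611 genes). A gene bright in a single group of pools could thus pass, so counts within lists depend in part on the filter. Group differences were fitted in limma over all genes with Benjamini-Hochberg adjustment and a two-sided threshold of 0.05: adult wild type colon against small intestine, fetal pools as labelled, and fetal KO pools by the profile of the wild type partner. A bound compares the brighter group's mean with the higher, on each array of the dim group, of the probe's own signal and the lowest signal well above background. Whether pools were separate litters is not stated, so p-values measure the spread between these pools. The KO pools were grouped by their partners on the same arrays.

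Gene names in the files were brought up to date by RefSeq accession for 23374 probes, by current symbol for 6733 and by older symbol for 2919, while 8148 kept theirs; clone and predicted gene names were not named. The members and lists were chosen with earlier results of these data known. Named genes were the largest differences past each threshold, list members and the 3 region markers; Alb, Ahsg, Amy2a5, Xist and Eif2s3y come from lists of other tissues and sex. The steps were tested on simulated data. Alternatives were other background, scaling, filter, probe and block settings, single slides, single dyes and leaving out each replicate. Some list genes are counted but not reported by name here.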

Additional observations from a re-analysis of the deposited data

Results flagged for a closer look

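For the genes below, the fetal pools of the 2 profiles did not overlap, and they differed in the direction opposite to that of the adult organs. The difference between stages was not tested for any of them. Calls opposite to the adult direction were rarer among regional genes than the matching calls over all genes, as given above. This is in part by construction, since the regional genes chose the groups. Lower in the fetal colon-profile pools but higher in adult colon were Ass1 (log2 difference -3.16 before birth and 1.77 in adults), Slc26a3 (-2.67 before birth and 2.62 in adults), Slc37a2, a sugar phosphate exchanger (-2.30 before birth and 2.75 in adults), Ctsl (-2.27 before birth and 1.58 in adults), Scnn1a (-2.11 before birth and 3.45 in adults) and Mettl7b, a methyltransferase-like protein (-1.70 before birth and 1.5 in adults).

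Higher in the fetal colon-profile pools but lower in adult colon were Ces1c (1.99 before birth and -2.07 in adults), Suox, sulfite oxidase (1.74 before birth and -2.66 in adults), Slc16a3, a lactate exporter (1.57 before birth and -2.0 in adults), Foxo6, a forkhead factor (1.56 before birth and -2.06 in adults), Reg3b (1.40 before birth and -1.22 in adults) and Map3k6, a kinase (1.32 before birth and -1.72 in adults). The probes of Slc26a3 and Scnn1a disagreed, as given above.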

How the results depend on the processing

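With the scanner's processed signals, the adult comparison called 2803 genes in place of 1431, and 1485 of 2604 regional genes were present before birth in place of 642 of 1269. Leaving out each replicate gave 274 to 3680 adult calls (274 without adult small intestine pool 2, 306 without pool 1, 604 without adult colon pool 3, 1322 without pool 2 and 3680 without pool 1) and 188 to 838 regional genes present before birth (188 without adult small intestine pool 2, 223 without pool 1, 386 without adult colon pool 3 and 838 without adult colon pool 1). These were 48.9% to 72.9% of the genes regional in each setting, beside 50.6% of 1269. A lone pool was assumed to vary like the other groups. The KO comparison by profile gave 2593 to 7059 calls in place of 6604 (2593 without fetal small intestine pools 1 and 2 and 3390 without fetal colon pool 1), and the labelled fetal comparison 0 in each setting (45 to 660 genes at an unadjusted p under 0.05). The cause was not tested. With 50 regional genes each way the profile scores were 2.57 and 2.35 in the colon-profile pools, against -4.34, -4.33 and -4.25 in the small-intestine-profile pools, and with processed signals 1.42 and 1.39 in the colon-profile pools, against -1.29, -1.28 and -1.24 in the small-intestine-profile pools, so no pool changed sides. Separate fetal small intestine pools 1 and 2 gave 9313 KO calls, and no filter gave 491 regional genes present before birth. Slide 5639 alone gave 630 of them and the other slides 665. Of 4419 values for 491 named and list genes, 238 moved by over 1.5 times, 152 of them with the processed signals and 31 with the mean of probes. The sign changed for 119 values, 27 of them with slide 5639 alone and 38 without it, and for 0 of the 1926 values of genes with a fetal call.

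Replicate numbers were not taken to pair pools. Adult deviations of the same number correlated at 0.0715 and 0.199 and those of other numbers at -0.199 to 0.162. The deviations of the 2 adult small intestine pools mirror each other, so these correlations cannot decide whether numbers pair pools. With the replicate block 1717 genes were called in adults (684 higher and 1033 lower) and 0 in the labelled fetal comparison. Slide as a random block could not be estimated, since 4 slides hold the 5 adult pools, and was not run. Slide 8216 held an adult pool of each organ, and within it 1152 of the 1269 regional genes differed by at least 2-fold, but both pools had taken part in choosing these genes. Probes near background give only bounds, and 2 replicates a profile limit every fetal value.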
